A study of Mus musculus with 14 samples.

Results

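The enzymes that write and erase N6-methyladenosine (m6A) were followed through every assay of the comparison between Lin28a+ and control muscle stem cells (MuSCs). The group holds 10 genes chosen by symbol, out of 14837 Ensembl genes, 1 a row, in the RNA table: *Mettl3*, *Mettl14*, *Mettl16*, *Wtap*, *Virma*, *Cbll1*, *Zc3h13* and *Rbm15* on the writing side, and *Fto* and *Alkbh5* on the erasing side. The mouse MuSCs, from skeletal muscle, were measured in 14 libraries. Each of control and Lin28a+ MuSCs gave 2 input libraries (the RNA level), 2 m6A-RIP libraries (RNA fragments pulled down with an m6A antibody) and 2 Igf2bp3-RIP libraries (RNA bound by the m6A reader Igf2bp3), and Lin28a+ MuSCs also gave 2 Lin28a-RIP libraries. Lin28a+ MuSCs were sorted by flow cytometry from *Lin28a-CreERT2*; *LSL-tdTomato* mice, in which the reporter marks cells in which the *Lin28a* promoter drove the tamoxifen-inducible Cre, and their descendants. The genotype field of the other group reads Control, and neither how those cells were obtained nor the age, sex or number of the mice is given in the sources used here. Both groups were grown on Matrigel in DMEM with fetal bovine serum. Nothing in the labels says that the 2 libraries of a group came from separate mice or cultures. The p-values thus measure the spread between these libraries, which may be technical, or for some genes counting error alone.

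In mammalian cells, most m6A of mRNA is laid down in the nucleus by a complex in which Mettl3 is the catalytic subunit and Mettl14 its RNA-binding partner. Wtap, Virma, Cbll1, Zc3h13 and Rbm15 form the regulatory part of that complex, which holds it in the nucleus and brings it to its sites. Mettl16 works apart from it, on U6 snRNA and on the mRNA of the enzyme that makes the methyl donor S-adenosylmethionine. Fto and Alkbh5 are demethylases that remove the mark. The transcripts of these enzymes can carry m6A and be bound by RNA-binding proteins themselves, which is what the RIP libraries report on.

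The RefSeq table of upstream sequences (GRCm38.p6, the assembly also called mm10) held 8 of the 10 genes. Stretches that end at the base before the RefSeq gene begins are shown for the 2 members whose RNA fell and for which the table reached outside the gene, *Zc3h13* (190 bases, chr14:75284116-75284305) and *Alkbh5* (250 bases, chr11:60537433-60537682), both on the plus strand, 5′ to 3′. Capitals mark the GC box GGGCGG and the CCAAT box CCAAT. Each was searched on both strands, as was the ETS core CCGGAAG, and no match overlapped another.
Zc3h13: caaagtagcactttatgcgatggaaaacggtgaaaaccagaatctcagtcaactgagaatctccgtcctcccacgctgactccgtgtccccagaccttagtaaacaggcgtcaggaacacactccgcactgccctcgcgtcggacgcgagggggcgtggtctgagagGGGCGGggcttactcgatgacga
Alkbh5: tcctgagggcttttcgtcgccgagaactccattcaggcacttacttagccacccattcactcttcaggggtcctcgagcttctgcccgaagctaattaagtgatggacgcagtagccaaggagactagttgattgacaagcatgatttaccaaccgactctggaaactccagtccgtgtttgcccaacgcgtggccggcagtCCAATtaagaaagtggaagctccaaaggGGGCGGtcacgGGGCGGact
The *Zc3h13* stretch held 1 GC box, as did 22.8% of the 32851 listed promoters over their first 190 bases. The *Alkbh5* stretch held 1 CCAAT box and 2 GC boxes, letters found in 33.8% and 32.7% of promoters over 250 bases. Neither stretch held the ETS core.

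The libraries differed in depth. Input libraries summed to between 4842915 and 6220960 estimated counts, m6A-RIP to between 21350962 and 31830638, Igf2bp3-RIP to between 9215355 and 34142094, and Lin28a-RIP to 36610494 and 33908110 counts. The columns used for the RNA of Lin28a+ MuSCs bear the names of Lin28a+ m6A-RIP samples in the input table, and were taken as Lin28a+ input because the labels assign that table to the input samples. Every RNA level of Lin28a+ MuSCs and every value relative to input rests on this. All 10 myogenic markers were in the RNA table, at summed levels of 9506 and 9725 CPM in the control libraries and 11679 and 11802 CPM in the Lin28a+ libraries (CPM are counts relative to the library total, after TMM scaling between libraries). Single markers moved in both directions. *Myog*, a factor of myogenic differentiation, stood at 766 and 775 CPM against 2769 and 2809 CPM, and *Myf5*, a factor of the committed myoblast, at 451 and 465 CPM against 197 and 200 CPM, both named after their values were seen. Of the defining markers of other cells, *Dcn*, *Lum*, *Cdh5*, *Kdr*, *Tek*, *Emcn*, *Adgre1* and *Cspg4* were not in it. Summed levels were 4.39 and 5.12 CPM in the control libraries and 13.9 and 12.8 CPM in Lin28a+ MuSCs for fibro-adipogenic markers (mostly *Ly6a*), 0.392 to 0.513 CPM for endothelial and 0.813 to 2.88 CPM for macrophage markers. The smooth muscle list, nearly all of it *Acta2*, summed to 5443 and 5405 CPM in control against 7443 and 7426 CPM in Lin28a+ libraries. The part of these shifts in the results was not tested. In such bulk samples, fewer cells with a transcript and less of it per cell cannot be told apart.

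At the RNA level, 5 of the 10 genes fell in Lin28a+ MuSCs and none rose. *Zc3h13*, *Rbm15* and *Virma* of the regulatory complex, *Mettl14* of the core and the eraser *Alkbh5* were lower, with Lin28a+ over control ratios of 0.644 for *Zc3h13*, 0.728 for *Rbm15*, 0.747 for *Mettl14*, 0.765 for *Virma* and 0.843 for *Alkbh5*. These were calls of edgeR's quasi-likelihood test at a Benjamini-Hochberg adjusted p under 0.05 over all 11317 genes tested, and all 10 members passed the filter on low counts. By the same rule 28.7% of all genes tested were lower and 28.1% higher. The 5 of 10 lower and none higher thus stand against a background in which many genes differ. The median log2 difference was -0.11 over the members and 0.01 over all genes.

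*Zc3h13* (chr14:75284306-75344433), a zinc finger protein that keeps the regulatory complex in the nucleus, fell the most. It measured 48.1 and 43.5 CPM in the control libraries and 29.3 and 29.5 CPM in Lin28a+ MuSCs. The groups lay well apart, and the log2 difference was -0.64 (SE 0.07, adjusted p 0.000644, edgeR). *Rbm15* (chr3:107305511-107334460), which binds RNA and recruits the writer to its sites, measured 62.8 and 59.1 CPM in the control libraries and 46.0 and 42.5 CPM in Lin28a+ libraries, a log2 difference of -0.46 (SE 0.06, adjusted p 0.00113, edgeR). *Virma* (chr4:11485958-11551143), the large scaffold of the complex, went from 89.6 and 88.1 CPM to 72.3 and 63.1 CPM, a log2 difference of -0.39 (SE 0.06, adjusted p 0.00338, edgeR). For both genes, each Lin28a+ library lay below each control library. With DESeq2 the SE were larger, at 0.22 for *Zc3h13*, 0.18 for *Rbm15* and 0.15 for *Virma*. These 3 calls were made by DESeq2 as well and held without any 1 input library.

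The other 2 members of the regulatory complex did not pass the test. *Wtap* (chr17:12966799-12992543), which anchors the Mettl3-Mettl14 pair in nuclear speckles, measured 26.4 and 26.0 CPM in the control libraries and 28.3 and 28.8 CPM in Lin28a+ libraries. The Lin28a+ values were higher without overlap, but the log2 difference of 0.13 (SE 0.12, adjusted p 0.366, edgeR) was close to its error. *Cbll1* (chr12:31484829-31500676), which codes for the E3 ubiquitin ligase Hakai, measured 10.6 and 11.2 CPM against 11.6 and 11.0 CPM, with overlapping groups and a log2 difference of 0.05 (SE 0.19, adjusted p 0.824, edgeR). *Rbm15b*, the paralogue of *Rbm15* that can take its place in the complex, is no member of the group and is named after its values were seen. It rose, from 174 and 174 CPM in the control libraries to 221 and 224 CPM in Lin28a+ MuSCs (log2 0.35, SE 0.03, adjusted p 0.000162, edgeR).

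In the catalytic core, the 2 genes had estimates of opposite sign. *Mettl14* (chr3:123368295-123385990) measured 12.7 and 14.0 CPM in the control libraries and 9.79 and 10.1 CPM in Lin28a+ MuSCs, a log2 difference of -0.42 (SE 0.18, adjusted p 0.0394, edgeR). The p-value behind this call measured counting error alone. That call lay near the threshold and was lost with DESeq2 (adjusted p 0.463) and without control replicate 2 or without either Lin28a+ library (adjusted p 0.206, 0.153 and 0.0923), as well as with total counts in place of TMM (0.0555) and with no filter on low counts (0.0578). *Mettl3* (chr14:52294841-52308741) had only 21.7 to 27.9 estimated counts per library, which were 4.06 and 4.18 CPM in the control libraries and 5.27 and 5.70 CPM in Lin28a+ MuSCs. Its values did not overlap, yet the log2 difference of 0.41 (SE 0.28, adjusted p 0.214, edgeR) could not be told from 0 at this depth. *Mettl16* (chr11:74770815-74826855), the separate writer, measured 11.9 and 14.3 CPM against 15.2 and 13.2 CPM, with overlapping groups and a log2 difference of 0.10 (SE 0.17, adjusted p 0.618, edgeR).

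The erasers differed from each other in what the test showed. *Alkbh5* (chr11:60537683-60558512) measured 172 and 170 CPM in the control libraries and 142 and 147 CPM in Lin28a+ libraries, a log2 difference of -0.25 (SE 0.03, adjusted p 0.00122, edgeR). DESeq2 gave it a larger SE and did not call it (log2 -0.25, SE 0.11, adjusted p 0.0679). *Fto* (chr8:91313367-91668433), the eraser first linked to body mass in human genetics, stood at 63.5 and 63.7 CPM in the control libraries and 63.5 and 65.9 CPM in Lin28a+ MuSCs. Its log2 difference was 0.03 (SE 0.08, adjusted p 0.805, edgeR), the smallest in size of the 10. Whether *Alkbh5* and *Fto* changed to different degrees was not tested.

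**Figure D1:**
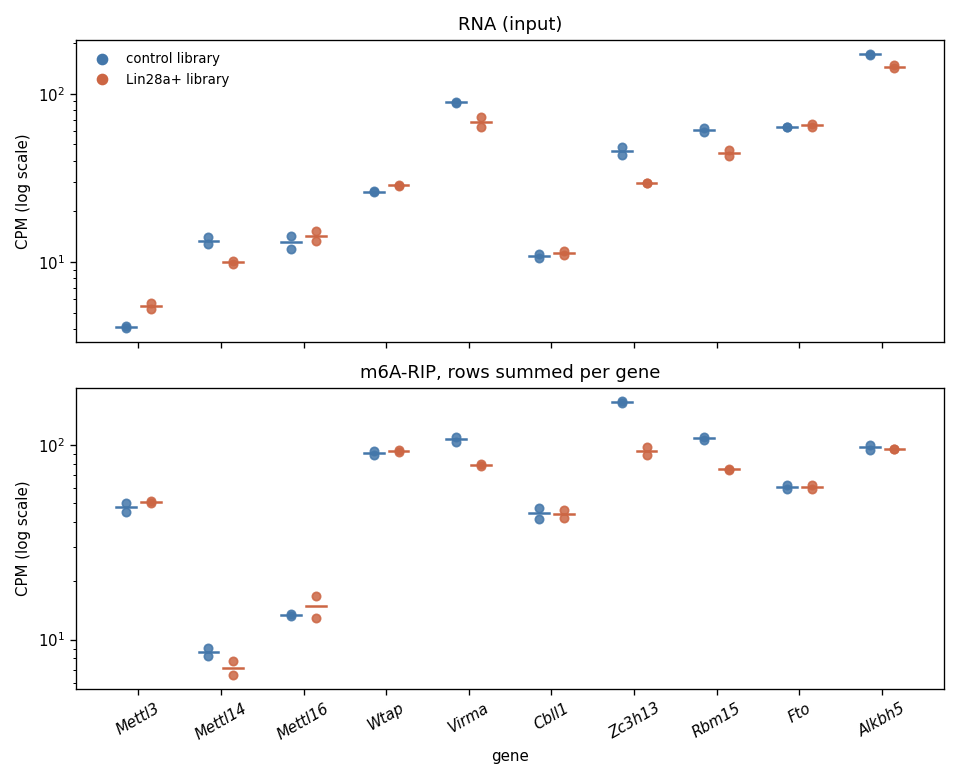
Level of each member in every library, in CPM on a log scale, for RNA (top) and m6A-RIP with the rows of a gene summed (bottom). Points are libraries and short lines are means of 2. *Zc3h13*, *Rbm15*, *Virma* and *Mettl14* show both Lin28a+ points below both control points in both assays, while the means of *Fto* nearly coincide.

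The m6A-RIP table holds counts for rows, each a stretch of a transcript where the pulled-down reads accumulated, and gives no positions. All 10 members were in it, with 25 rows in all, as were 54.4% of the 14821 gene symbols of the RNA table. With the rows of a gene summed, *Zc3h13*, *Virma* and *Rbm15* fell and the other 7 genes did not pass the test. That is 3 of 10 lower, close to the 33.8% of all 9416 genes tested. A RIP count rises with the amount of a transcript as well as with its methylation, so this comparison alone does not separate them.

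*Zc3h13* again changed the most, from 167 and 165 CPM in control to 97.1 and 88.6 CPM in Lin28a+ m6A-RIP, a ratio of 0.558 (log2 -0.84, SE 0.05, adjusted p 1.60e-08, edgeR). *Rbm15* went from 110 and 106 CPM to 75.5 and 74.0 CPM, a ratio of 0.692 (log2 -0.53, SE 0.05, adjusted p 8.03e-07, edgeR). *Virma* went from 104 and 110 CPM to 79.9 and 78.1 CPM, a ratio of 0.740 (log2 -0.44, SE 0.05, adjusted p 7.07e-06, edgeR). In all 3 genes the groups were far apart compared with the distance between replicates, and the calls were made under each alternative, DESeq2 and each left-out library included.

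*Alkbh5*, whose RNA fell, had 100 and 94.4 CPM in the control libraries and 94.8 and 94.7 CPM in Lin28a+ m6A-RIP, with overlapping groups and a log2 difference of -0.04 (SE 0.05, adjusted p 0.479, edgeR). With total counts in place of TMM, which moves the median of all genes from 0.01 to -0.09 on the log2 scale, *Alkbh5* passed the threshold on the lower side (adjusted p 0.0211). *Mettl14* had 9.01 and 8.23 CPM against 7.74 and 6.57 CPM, lower without overlap but with a log2 difference of -0.28 (SE 0.17, adjusted p 0.160, edgeR), which was -0.16 without Lin28a+ library b. *Mettl3* had 45.4 and 50.5 CPM in the control libraries and 51.4 and 50.3 CPM in Lin28a+ MuSCs, and *Wtap* had 88.6 and 93.0 CPM against 92.0 and 94.5 CPM. Those 2 genes, *Mettl16*, *Cbll1* and *Fto* had overlapping groups and log2 differences between -0.01 and 0.16.

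**Figure D2:**
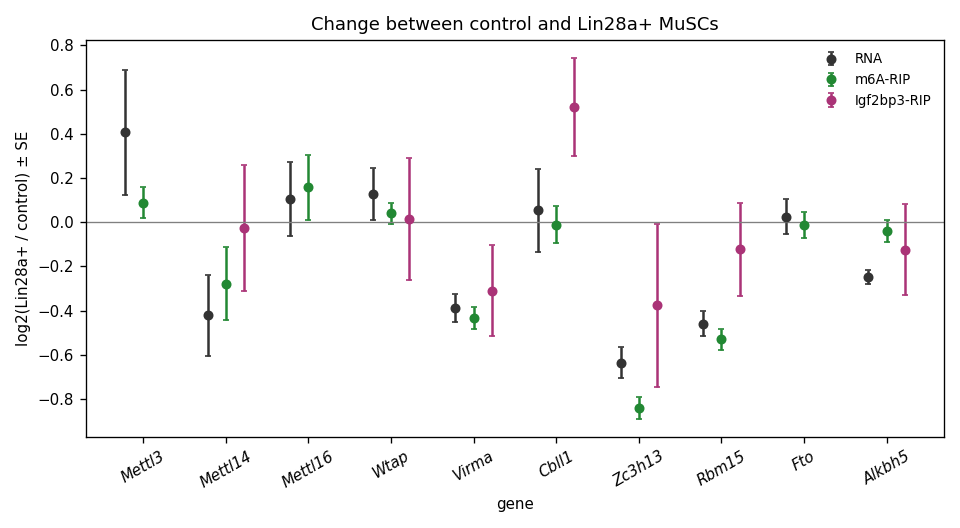
Log2 ratio of Lin28a+ over control MuSCs with its standard error for each member, in RNA, m6A-RIP and Igf2bp3-RIP (gene sums). *Zc3h13*, *Rbm15* and *Virma* lie below 0 in RNA and m6A-RIP, *Alkbh5* lies below 0 in RNA and near 0 in m6A-RIP, and within each of the 7 genes with Igf2bp3-RIP peaks that assay has the widest error. Genes with no Igf2bp3-RIP peak have no point for it.

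Row by row, 9 of the 25 rows of members fell and none rose. Of all 18881 rows, 31.8% were called lower and 5665 rows higher. The 9 rows were 5 of the 6 rows of *Zc3h13*, 3 of the 4 rows of *Virma* and the only row of *Rbm15*. In *Virma* the 4 rows changed alike, with log2 differences from -0.42 to -0.31, and the row that missed the threshold (log2 -0.37, SE 0.16, adjusted p 0.0566, edgeR) was the one with the fewest counts. Of the called *Virma* rows, only the one with the most counts (log2 -0.42, SE 0.07) was called under every alternative. The other 2 lost their calls with DESeq2 (adjusted p 0.0508 and 0.0760), without control replicate 2 (0.101 and 0.257) and without Lin28a+ library a (0.108 and 0.0554), and the fourth row also without library b (0.131). The *Zc3h13* rows ranged more widely, from -1.05 to -0.31, and the first lost its call without control replicate 2 or Lin28a+ library a (adjusted p 0.0821 and 0.132).

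Leaving out 1 library also added calls. The sixth *Zc3h13* row, the fourth *Alkbh5* row and the *Mettl3* row were called without control replicate 2 (adjusted p 0.0308, 0.0228 and 0.020), and the *Mettl16* row without Lin28a+ library a (0.0337).

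The third *Zc3h13* row in the table's order held the most counts. It went from 76.4 and 77.1 CPM in control to 39.4 and 35.0 CPM in Lin28a+ m6A-RIP, a ratio of 0.484 (log2 -1.05, SE 0.07, adjusted p 7.37e-09, edgeR). The sixth row had 9.88 and 7.13 CPM against 8.07 and 5.86 CPM, with overlapping groups and a log2 difference of -0.31 (SE 0.20, adjusted p 0.195, edgeR), which ran from -0.55 to -0.04 with 1 library left out (-0.04 without control replicate 1 and -0.09 without Lin28a+ library b). The third row took 46.3% (95% Wilson interval 45.0 to 47.7) and 47.8% (46.2 to 49.4) of the counts of the gene in the control libraries, and 39.7% (37.7 to 41.8) and 38.9% (37.1 to 40.8) in the Lin28a+ libraries. These intervals cover counting error only.

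Tested against the average of its gene with edgeR's diffSpliceDGE, this row fell by 0.26 more on the log2 scale (adjusted p 0.0416). It was the only called row among the 20 rows of the 5 members with several rows, against 7.79% of the 14366 rows tested. The call was lost without any 1 of the 4 m6A-RIP libraries (adjusted p 0.0842 to 0.438) and with a minimum of 10 counts in every library (adjusted p 0.0515), while the estimate stayed between -0.28 and -0.24.

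Among the erasers, the second *Alkbh5* row had 8.24 and 8.77 CPM in the control libraries and 9.27 and 12.8 CPM in Lin28a+ m6A-RIP. Both Lin28a+ values were above both control values, but the log2 difference of 0.39 (SE 0.17) missed the threshold (adjusted p 0.0564, edgeR). It rested on single libraries, at 0.59 without Lin28a+ library a (adjusted p 0.0120) and 0.13 without library b. The other *Alkbh5* rows lay between -0.26 and 0.06, and the *Fto* rows at -0.01, 0.01 and 0.43, the last on 82 to 146 counts per library (adjusted p 0.0921, edgeR).

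**Figure D3:**
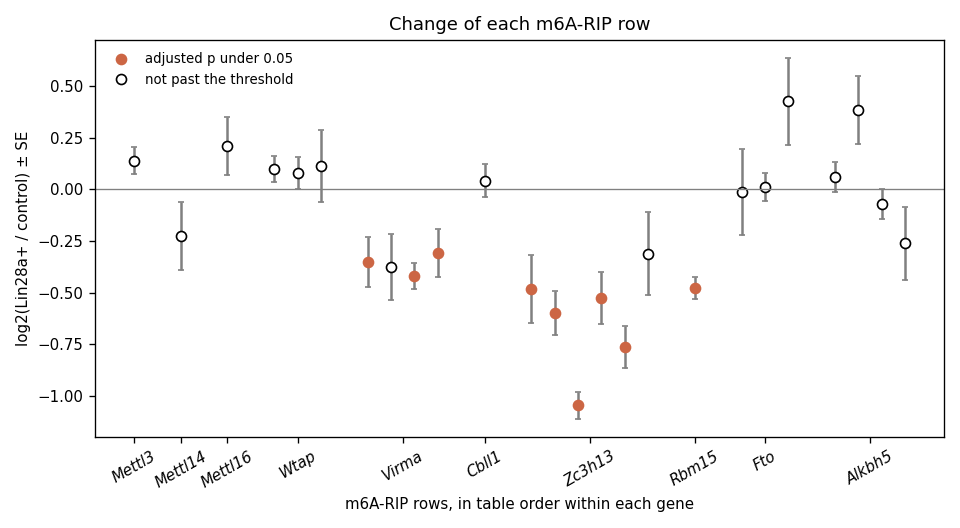
Log2 ratio of Lin28a+ over control m6A-RIP with its standard error for each of the 25 rows, in table order within each gene. Filled points passed an adjusted p under 0.05. The 9 filled points belong to *Virma*, *Zc3h13* and *Rbm15*, and all lie below 0.

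Set against the RNA of the same gene, m6A-RIP changed in none of the 10 members. The test was an interaction term in an edgeR model over input and m6A-RIP libraries, which called 7.19% of 8063 genes. At an unadjusted p under 0.05, which 1365 of the 8063 genes had, only *Alkbh5* was found (log2 0.19, SE 0.06, unadjusted p 0.00884, adjusted p 0.0966, edgeR), with m6A-RIP higher relative to RNA in Lin28a+ MuSCs. Without control m6A-RIP replicate 1 it passed the threshold (adjusted p 0.0320), over its other alternatives the adjusted p ran from 0.0565 to 0.662, and DESeq2 called none. With total counts its estimate was only 0.08 (adjusted p 0.481). *Zc3h13* followed with -0.22 (SE 0.11, adjusted p 0.379, edgeR; -0.14 without control input replicate 2), and *Mettl3* had the widest error (log2 -0.33, SE 0.30, adjusted p 0.700, edgeR). The falls of *Rbm15* and *Virma* in m6A-RIP were thus not told apart from their falls in RNA, with relative log2 differences of -0.09 (SE 0.09) and -0.06 (SE 0.08). With 1 library left out, that of *Rbm15* ran from -0.14 without Lin28a+ input library b to -0.03 without library a. With total counts, which moved the median of all genes from -0.03 to -0.14, those of *Rbm15* and *Virma* became -0.20 and -0.18 and that of *Zc3h13* -0.33, and none was called (adjusted p 0.122, 0.214 and 0.0688).

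Within a group, the level of m6A-RIP over input was compared between genes as the difference of log2(CPM + 1), a ratio within each gene. It is a description, because rows cover parts of a transcript and input values cover the gene, and because an input value that is a mean over transcripts would raise it. *Mettl3* stood highest, at 3.18 and 3.33 in the control m6A-RIP libraries and 3.01 and 2.98 in the Lin28a+ libraries, above 93.1% and 91.6% of the 8063 genes in both tables. *Cbll1*, *Zc3h13* and *Wtap* followed in control at 1.94, 1.84 and 1.76. These 3 were not clearly ordered. The lower of the *Cbll1* libraries, at 1.84, lay between the *Zc3h13* libraries at 1.85 and 1.83, *Wtap* had 1.72 and 1.79, and in Lin28a+ MuSCs *Wtap* at 1.67 stood above *Zc3h13* at 1.62.

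*Rbm15* came next at 0.81 in control, above 54.5% of genes, then *Virma* at 0.26. *Mettl16* and *Fto* were at 0.03 and -0.06, and their libraries overlapped in Lin28a+ MuSCs. *Mettl14* at -0.58 and *Alkbh5* at -0.81 closed the order, above 24.9% and 21.1% of genes. The members' median was 0.54 in control and 0.48 in Lin28a+ MuSCs, beside medians of 0.63 and 0.61 over all genes. Under a minimum of 10 counts in every library, the members' median lay above that of all genes, by 0.045 and 0.028. The core partners *Mettl3* and *Mettl14* thus lay near opposite ends of the order.

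**Figure D4:**
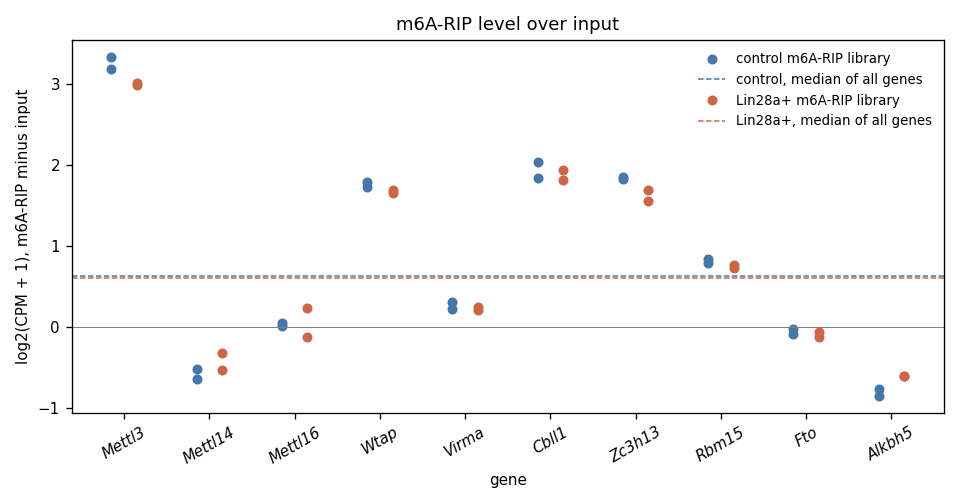
Level of m6A-RIP over input for each member, as the difference of log2(CPM + 1) between each m6A-RIP library and the mean of the 2 input libraries of its group. Dashed lines are the medians over all 8063 genes. *Mettl3* lies near 3 in all 4 libraries, and *Mettl14* and *Alkbh5* lie below 0.

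In Igf2bp3-RIP, 7 members had peaks, 17 in all, where 26.8% of the 14821 gene symbols of the RNA table had any. *Virma* had 5, *Alkbh5* 4, *Cbll1* 3, *Rbm15* 2, and *Mettl14*, *Wtap* and *Zc3h13* 1 each, while *Mettl3*, *Mettl16* and *Fto* had none in the table. No gene sum of a member passed the test (0.287% of 4527 genes did), nor did any of the 17 peaks (0.123% of 19465 peaks). At an unadjusted p under 0.05, none of the 7 gene sums and 1 peak, the first of *Cbll1*, were found with edgeR, as were 382 of all 4527 genes and 1017 of all 19465 peaks, and DESeq2 called no member gene or peak. With the replicate number as a block, edgeR called 2 peaks of *Cbll1* (adjusted p 0.0178 and 0.0488), 1988 of all peaks and no gene sum of a member. Replicate libraries differed far more in Igf2bp3-RIP than in the other RIP assays. Divided by its degrees of freedom, the chi-square between the control replicates was 99.7 and between the Lin28a+ replicates 99.5, beside 4.46 to 6.13 for m6A-RIP and Lin28a-RIP.

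*Cbll1* was the gene with the clearest shift, from 62.8 and 51.2 CPM in control to 85.7 and 77.6 CPM in Lin28a+ Igf2bp3-RIP. The groups did not overlap, and the log2 difference was 0.52 (SE 0.22, unadjusted p 0.0566, adjusted p 0.609, edgeR). Its 3 peaks, at chr12:31485213-31485474, chr12:31487333-31487908 and chr12:31488033-31488326, were each higher in both Lin28a+ libraries, the second by only 41.2 against 40.9 CPM at the nearest. The share of all peaks that separate in this way was not counted. The log2 differences were 0.87 (SE 0.31), 0.42 (SE 0.31) and 0.61 (SE 0.29), with adjusted p of 0.805, 0.9999 and 0.9999 (edgeR). That of the second peak fell to 0.20 without control replicate 2 and 0.26 without Lin28a+ replicate 1, and that of the third to 0.39 without Lin28a+ replicate 1. *Virma* had 179 and 157 CPM in the control libraries and 144 and 127 CPM in Lin28a+ Igf2bp3-RIP, lower without overlap, with a log2 difference of -0.31 (SE 0.21, adjusted p 0.784, edgeR). It was -0.18 without Lin28a+ replicate 2.

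*Zc3h13* had 37.7 and 19.9 CPM in the control libraries and 24.9 and 19.3 CPM in Lin28a+ libraries, so that the control replicates differed more than the groups did. *Rbm15* had 48.4 and 48.1 CPM against 45.1 and 43.6 CPM, and *Alkbh5* 111 and 114 CPM against 111 and 95.0 CPM. *Mettl14* and *Wtap* had log2 differences of -0.03 (SE 0.28) and 0.02 (SE 0.28). Relative to RNA, none of the 7 genes was called, where 1.08% of 3974 genes were, and the log2 differences ran from -0.34 for *Wtap* to 0.24 for *Cbll1*. With total counts these were -0.10 and 0.47, and with 1 library left out they ranged from -0.53 to -0.11 and from 0.099 to 0.38. No member had an unadjusted p under 0.05 there with edgeR, and DESeq2 called none. Over input, *Cbll1* was again the highest member, at 2.28 in control, above 63.2% of genes. *Zc3h13*, *Alkbh5*, *Rbm15* and *Wtap* lay below 0 in control. Both *Alkbh5* libraries lay below those of *Rbm15* and *Wtap*, and *Zc3h13* could not be placed, since its libraries at -0.27 and -1.16 spanned those of *Alkbh5* and *Rbm15*.

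Lin28a-RIP was made from Lin28a+ MuSCs only, so its values have no comparison between groups. The table held 20 peaks in 5 members: 7 in *Virma*, 7 in *Zc3h13*, 3 in *Rbm15*, 2 in *Mettl16* and 1 in *Alkbh5*. Of the 14821 gene symbols of the RNA table, 20.6% had a peak. *Mettl3*, *Mettl14*, *Wtap*, *Cbll1* and *Fto* had no Lin28a-RIP peak. Over their peaks, *Virma* collected 11041 and 10342 counts, *Zc3h13* 5111 and 4847, *Rbm15* 2743 and 2390, *Alkbh5* 742 and 543, and *Mettl16* 415 and 389. *Virma* ranked 688 and *Zc3h13* 1190 of the 3493 genes by this count.

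Per kb of peak, the *Virma* peaks averaged 2108 to 4424 counts and those of *Zc3h13* 909 to 1503 counts. The densest was at chr4:11507756-11508165 in *Virma*, with 1783 and 1845 counts. Over input, *Zc3h13* and *Virma* stood at 2.23 and 2.15 on the log2(CPM + 1) scale, above 57.8% and 56.5% of 3054 genes. *Rbm15* stood at 0.70, *Mettl16* at -0.29, and *Alkbh5* at -2.93, above only 2.23% of genes.

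All 20 Lin28a-RIP peaks and 15 of the 17 Igf2bp3-RIP peaks lay in the RefSeq gene they were assigned to. The *Mettl14* peak (chr3:123365095-123365384) lay 2911 bp outside, and the fourth *Alkbh5* peak (chr11:60581481-60581703), with 18 to 112 counts, lay 22969 bp outside. Of the 20 Lin28a-RIP peaks, 8 shared at least 1 bp with an Igf2bp3-RIP peak (40% of them, beside 52.4% of all 21616 Lin28a-RIP peaks). They were 4 of the 7 *Virma* peaks, 2 of the 3 *Rbm15* peaks, the *Alkbh5* peak and 1 of the 7 *Zc3h13* peaks.

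In *Virma* every Igf2bp3-RIP peak overlapped a Lin28a-RIP peak, and the broad Lin28a-RIP peak chr4:11512831-11514108 overlapped 2 of them. In *Zc3h13*, the 1 Igf2bp3-RIP peak (chr14:75323111-75323849) and the Lin28a-RIP peak chr14:75323058-75323829 had nearly the same bounds, and the other 6 Lin28a-RIP peaks had no partner. *Cbll1*, *Mettl14* and *Wtap* had Igf2bp3-RIP peaks and none for Lin28a, and *Mettl16* the reverse.

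**Figure D5:**
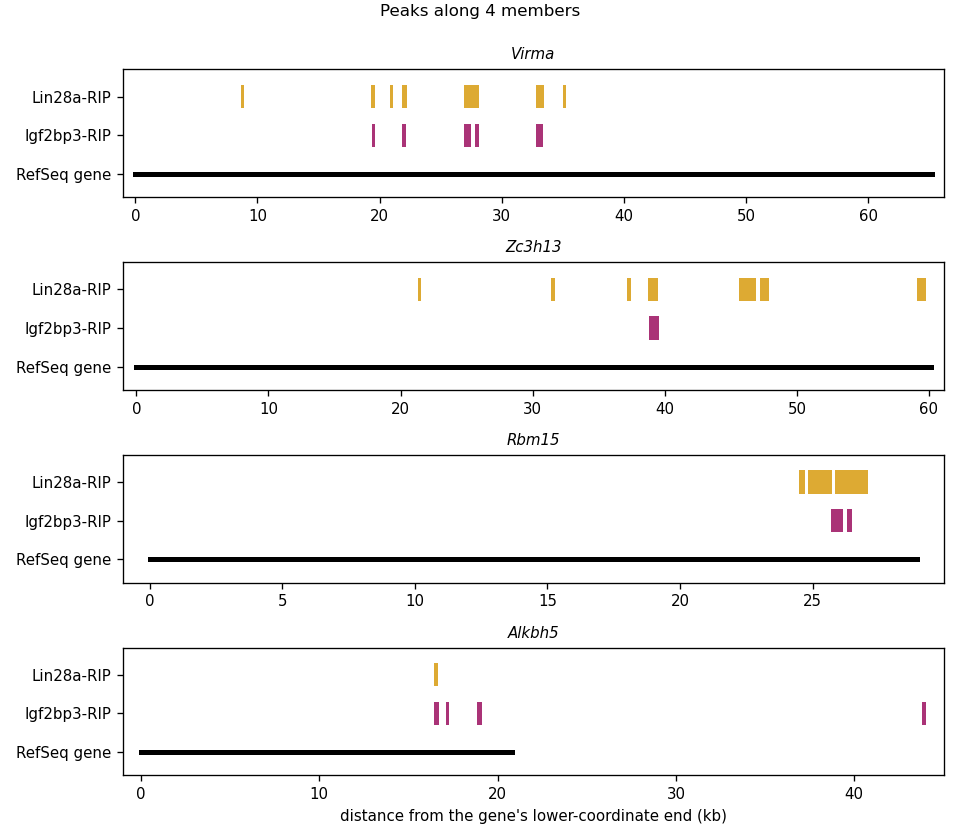
Peaks of Lin28a-RIP and Igf2bp3-RIP along *Virma*, *Zc3h13*, *Rbm15* and *Alkbh5*, drawn to scale in kb from the lower-coordinate end of the RefSeq gene (black line). The *Virma* Igf2bp3-RIP peaks coincide with Lin28a-RIP peaks, *Zc3h13* shows 1 shared position out of 7, and 1 *Alkbh5* peak lies beyond the gene.

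The genes around the writers and erasers, in lists written with earlier results of these data known, moved in both directions. Of 16 m6A readers, 15 were tested in RNA, and 6 rose and 5 fell, where 28.1% of all genes rose and 28.7% fell, with a median log2 difference of 0.10. *Igf2bp3*, the reader pulled down above, rose from 11.6 and 10.7 CPM to 35.6 and 34.0 CPM, a ratio of 3.13 (log2 1.65, SE 0.07, adjusted p 2.92e-05, edgeR). The nuclear RNA-binding proteins *Rbmx* (log2 0.79, SE 0.09) and *Hnrnpc* (log2 0.44, SE 0.03) also rose. The YTH-domain readers *Ythdf3* (log2 -0.73, SE 0.04) and *Ythdc1* (log2 -0.51, SE 0.15) fell, as did *Fmr1* (log2 -0.55, SE 0.19), which codes for the fragile X protein. *Ythdf1* and *Ythdf2* did not pass the test, at 0.10 (SE 0.07) and -0.05 (SE 0.09).

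Of 14 other RNA methyltransferase and demethylase genes tested, 5 rose, 1 fell and 8 did not pass, beside 28.1% higher and 28.7% lower among all genes, with a median of 0.26. *Pcif1*, which methylates the cap-adjacent adenosine, went from 36.8 and 34.6 CPM to 55.3 and 57.2 CPM (log2 0.66, SE 0.05, adjusted p 0.000190, edgeR). *Wdr4* (log2 0.66, SE 0.24) and *Trmt61a* (log2 0.55, SE 0.17), both parts of tRNA methyltransferases, rose, and *Alkbh8*, which modifies tRNA wobble uridines, fell (log2 -0.81, SE 0.30, adjusted p 0.0156, edgeR). Of 7 genes for the supply and turnover of S-adenosylmethionine, 3 rose and 1 fell, beside the same shares of all genes, with a median of -0.02. *Ahcy*, which clears the inhibitory by-product S-adenosylhomocysteine, went from 421 and 427 CPM to 611 and 595 CPM (log2 0.51, SE 0.03, adjusted p 4.64e-05, edgeR). *Mat2b* (log2 0.35, SE 0.12), the regulatory subunit of the synthase, and *Mtr* (log2 0.22, SE 0.09), methionine synthase, rose, and *Ahcyl1* (log2 -0.35, SE 0.03), a relative of *Ahcy*, fell.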

How the data were processed

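Per the labels, RNA was sequenced from cultured mouse MuSCs on Illumina HiSeq X10. The methods name trimming, alignment with HISAT2 2.0.4, MACS2 and DESeq2 1.42.0. They name GRCh38, a human assembly, whereas the submitters' processing notes also list mm10 and the identifiers are of mouse genes. RefSeq positions (GRCm38.p6) fell in the assigned gene for 86.1% of Lin28a-RIP and 80.6% of Igf2bp3-RIP peaks. The RIP tables that the authors deposited hold unscaled whole-number counts for each row or peak. The deposited input table holds estimated counts, with decimals, for each gene. The 4 values of *Rbm15*, *Virma*, *Zc3h13* and *Cbll1* were whole multiples (within 0.02 after multiplying) of 1/2, 1/3, 1/4 and 1/5, so they may be means over transcripts; how they were made is not given in the sources used here. Before testing, each input value was rounded to the nearest whole number.

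Tests used R 4.3.3 and edgeR 4.0.16 (quasi-likelihood, TMM factors, filterByExpr, Benjamini-Hochberg adjusted p under 0.05), checked on simulated data. An edgeR SE is the log2 difference over the square root of the F statistic, so it can lie below counting error. Where edgeR bounds its p-value by the Poisson one, the SE comes from that p-value, and both measure counting error alone. In RNA this held for *Mettl3*, *Mettl14*, *Mettl16*, *Wtap*, *Cbll1* and *Fto*. Alternatives were DESeq2, RLE factors, total counts, other filters (none, at least 10 counts in every library), TMM over whole tables (added after seeing the data) and each library left out. Row-level and gene-level m6A-RIP and Igf2bp3-RIP fits had factors of their own, so a gene with 1 row has slightly different CPM in each. A level over input used a pseudocount of 1 CPM. Columns were matched to samples by name, and the Lin28a+ columns of the input table, named as m6A-RIP samples, and of the m6A-RIP table, which share 1 name, were matched to their group only, so they are called a and b. Input replicates were not identical: over genes with whole-number values the chi-square divided by its degrees of freedom was 1.70 in control and 1.80 in Lin28a+ MuSCs. Over all features, decimals included, it was 3.72 and 0.886, the last below counting error. All members are named in every assay. Of the other lists, the 3 largest rises and falls among called genes without overlap are named, and *Ythdf1* and *Ythdf2* were added after their values were seen. The members and lists were chosen with earlier results of these data known. Lin28a itself was not analysed here.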

Additional observations from a re-analysis of the deposited data

How the results depend on the processing

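The RNA calls of members, 5 in all, became 3 with DESeq2, 4 with total counts or no filter, and 4 to 5 with 1 library left out. The 9 called m6A-RIP rows became 7 with DESeq2, 11 with total counts and 8 to 9 with 1 library left out (over all rows 11670 calls became 10275, 11480 and 10152 to 10549), though these were not the same rows throughout: without control replicate 2, *Zc3h13* row 1 and *Virma* rows 1 and 4 were lost and *Zc3h13* row 6, *Alkbh5* row 4 and the *Mettl3* row gained. Over all genes, DESeq2 called 3039 in RNA, where edgeR called 6432. The rows departing from their gene became 0 with at least 10 counts in every library and with any library left out. Members called relative to input in m6A-RIP became 0 to 1 with 1 library left out, and the 580 calls over all genes became 307 to 359 without any 1 input library (307 without Lin28a+ library a, 342 without control replicate 2, 348 without Lin28a+ library b and 359 without control replicate 1). With the replicate number as a block, 2 Igf2bp3-RIP peaks of members were called, both in *Cbll1* (adjusted p 0.0178 and 0.0488, edgeR), and 0 genes. The block moved the calls over all peaks from 24 to 1988 and over all genes from 13 to 374. The replicate difference correlated between the groups (r = 0.703 across 19465 peaks, which are not independent). Both replicate 1 libraries were also shallower (9215355 and 12617254 counts) than both replicate 2 libraries (27592959 and 34142094 counts). The labels name no shared batch, and whether the replicates were paired was not tested. No paired analysis was possible for the other comparisons because the Lin28a+ input columns bear names of m6A-RIP samples and both Lin28a+ m6A-RIP columns bear 1 name, so that no replicate number could be taken from them.

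Total counts in place of TMM turned the direction of uncalled values: *Alkbh5* row 1 to -0.095, the *Cbll1* row to -0.11, the *Mettl3* row to -0.014, *Wtap* rows 1 to 3 to -0.055, -0.075 and -0.041, *Fto* row 2 to -0.14, and the gene sums of *Mettl3* to -0.014 and *Wtap* to -0.062 in m6A-RIP, *Mettl16* to -0.074 relative to input, *Mettl14* to 0.0073 in Igf2bp3-RIP, and *Alkbh5* to 0.13 and *Virma* to 0.086 in Igf2bp3-RIP relative to input (0.12 and 0.080 with TMM over whole tables). They moved the split of higher against lower m6A-RIP rows from 5665 and 6005 to 3842 and 7638, of m6A-RIP genes from 3060 and 3179 to 2395 and 3766, and of genes relative to input from 247 and 333 to 207 and 858. In Igf2bp3-RIP relative to input the split of 14 and 29 became 208 and 34 with total counts and 177 and 33 with TMM over whole tables, as the median of all genes moved from 0.03 to 0.26. DESeq2 called 346 genes relative to input in m6A-RIP in place of 580, and in Igf2bp3-RIP 263 peaks, 115 genes and 70 genes relative to input in place of 24, 13 and 43. With at least 10 counts in every library no Igf2bp3-RIP peak was called (973 had an unadjusted p under 0.05), total counts called 36 peaks and 7 genes, and leaving out 1 library gave 108 to 193 peaks, 39 to 73 genes and 0 to 578 genes relative to input.

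With 1 library left out, log2 changes not called with all libraries that crossed 0 ranged from -0.0041 to 0.054 for *Fto* and -0.014 to 0.25 for *Mettl16* in RNA. In m6A-RIP they ranged from -0.49 (called, adjusted p 0.0228) to 0.050 for *Alkbh5* row 4, -0.056 to 0.14 for the *Cbll1* row, -0.043 to 0.27 for *Wtap* row 3, -0.24 to 0.22 for *Fto* row 1, -0.048 to 0.08 for *Fto* row 2, -0.080 to 0.0051 for *Alkbh5*, -0.11 to 0.088 for *Cbll1*, -0.045 to 0.023 for *Fto* and -0.054 to 0.33 for *Mettl16*, and relative to input from -0.18 to 0.018 for *Cbll1*, -0.17 to 0.21 for *Mettl16* and -0.16 to 0.042 for *Virma*. Others stayed on one side but moved by over 1.5 times, such as *Cbll1* in RNA (0.018 to 0.087) and *Mettl3* (0.0099 to 0.16) and *Wtap* (0.0036 to 0.074) in m6A-RIP. In Igf2bp3-RIP they ranged from -0.23 to 0.025 for *Alkbh5*, -0.23 to 0.19 for *Mettl14*, -0.18 to 0.25 for *Wtap* and -0.77 to 0.15 for *Zc3h13*, and relative to input from -0.21 to 0.033 for *Alkbh5*, -0.052 to 0.38 for *Mettl14* and -0.36 to 0.55 for *Zc3h13*. The cause was not tested for any of these.

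The members' median level over input, minus that of all genes, was -0.09 in control and -0.12 in Lin28a+ m6A-RIP. It became -0.12 and -0.17 with a pseudocount of 0.1 CPM and turned to 0.045 and 0.028 with at least 10 counts. That minimum moved it from -1.74 to -1.61 in control Igf2bp3-RIP, from -1.70 to -1.49 in Lin28a+ Igf2bp3-RIP and from -1.01 to -0.84 in Lin28a-RIP, and the smaller pseudocount gave -1.77 and -1.09 in the last 2. Requiring 50% of each peak left 5 of the 8 shared Lin28a-RIP peaks, 25% of the members' peaks beside 43.0% of all. Over the log2 changes of the member genes, the 25 m6A-RIP rows, the *Cbll1* peaks and *Zc3h13* row 3 against its gene, 671 refitted values kept their direction and side of the threshold, 21 lost a call, 11 gained one and 48 changed sign. Depth limits *Mettl3*, *Mettl14*, *Mettl16* and *Cbll1* most, whose input values were lowest among the members.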
